A study of Mus musculus with 4 samples.

Results

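The 9 genes described here belong to 3 linked ligand systems: the ligand genes Tnfsf11 (RANKL), Cd40lg (CD40L) and Tnfsf14 (LIGHT), the receptor genes Tnfrsf11a (RANK), Cd40 and Tnfrsf14 (HVEM), the decoy receptor gene Tnfrsf11b (osteoprotegerin), and Btla and Cd160, whose proteins bind HVEM. They are 9 of 50600 genes counted in 4 RNA-seq libraries of primary T cells from C57BL/6NJ mice, and all 9 were matched by Ensembl identifier. The members were chosen by name with their levels in these libraries already known, so levels and differences between members are given as descriptions, without a test. The labels give 1 group, with no treatment or control group and with age and sex not recorded. Sample names in the file headers begin mmTh0 and read activated, bulk and 72 h, and the labels link a differentiation protocol for CD4+ T cells. The stimulus is not stated in the labels or headers.

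RANKL, CD40L and LIGHT are trimeric membrane ligands of the TNF family that activated T cells display. RANKL acts on RANK of osteoclast precursors and dendritic cells, and osteoprotegerin is a soluble receptor that captures it. CD40L acts on CD40 of B cells and other antigen-presenting cells. LIGHT binds HVEM and the lymphotoxin beta receptor, while BTLA and CD160, which belong to the immunoglobulin superfamily, bind another face of HVEM. BTLA carries tyrosine motifs that recruit phosphatases and restrain lymphocytes.

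Library totals ran from 49613182 to 94222415 counts, and the 9 genes together took 0.134% to 0.14% of them. TPM below is a count divided by the exon length of the gene and scaled so that every library has the same sum, and ± marks the SD over 4 libraries. The X-linked RNA Xist stood at 332, 150.1, 0.877 and 0.392 TPM (replicates 1 to 4), although the labels give all libraries the same donor identifier. Xist was high in replicates 1 and 2 and low in replicates 3 and 4. The labels record neither sex nor whether the libraries came from different animals, and the source of this split was not tested. SDs and p-values below pool all 4 libraries. They cover only how far these libraries differ, whether by sex, by animal or for technical reasons. T-cell markers were abundant, with all 7 detected, Cd3e (a chain of the T-cell receptor complex) at 272 ± 15.5 TPM and Cd4 at 1056 ± 62.8 TPM. The co-receptor gene Cd8a stood at 0.19 ± 0.0957 TPM and its partner Cd8b1 at 15.8 ± 2.38 TPM. Of the 4 gamma-delta T-cell markers none was detected, with Trdc at 0.729 ± 0.118 TPM and Sox13 highest at 0.911 ± 0.245 TPM.

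Promoter sequences from RefSeq (GRCm38.p6, the assembly also called mm10) were found for 6 of the 9 genes. Those of 3 genes are shown, since they belong to the most abundant member (Tnfsf11), to its receptor near the lower end (Tnfrsf11a) and to the ligand whose window held the most matches (Tnfsf14). Each runs 5′ to 3′ on the strand of the gene, covers 240 bases and has its last base 11 bases before the RefSeq start site. Capitals mark matches, on both strands, to GGAAA (core letters of NFAT sites), TGANTCA (AP-1) and TATAAA (the motif of a TATA box), and no match overlapped another.
Tnfsf11, chr14:78308054-78308293, minus strand: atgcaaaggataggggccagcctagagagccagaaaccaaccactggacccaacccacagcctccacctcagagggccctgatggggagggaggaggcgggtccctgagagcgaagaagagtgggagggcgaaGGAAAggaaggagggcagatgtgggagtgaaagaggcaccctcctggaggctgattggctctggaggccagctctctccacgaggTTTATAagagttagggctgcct
Tnfsf14, chr17:57194192-57194431, minus strand: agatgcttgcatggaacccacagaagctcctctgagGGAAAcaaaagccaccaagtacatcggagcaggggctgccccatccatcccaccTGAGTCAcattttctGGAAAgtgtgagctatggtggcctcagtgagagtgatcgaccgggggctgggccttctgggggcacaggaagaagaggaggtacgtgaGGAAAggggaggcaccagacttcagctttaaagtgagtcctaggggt
Tnfrsf11a, chr1:105780473-105780712, plus strand: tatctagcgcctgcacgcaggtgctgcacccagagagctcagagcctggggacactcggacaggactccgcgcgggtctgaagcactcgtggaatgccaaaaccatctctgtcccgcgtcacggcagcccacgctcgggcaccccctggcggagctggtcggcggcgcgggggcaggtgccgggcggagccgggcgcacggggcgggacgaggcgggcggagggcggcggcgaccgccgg

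The Tnfsf11 window held 1 GGAAA match and 1 TATAAA match, the latter from 32 to 27 bases before the start site. This TATAAA match lay on the opposite strand and reads TTTATA on the strand of the gene. The Tnfsf14 window held 3 GGAAA matches and 1 TGANTCA match, and the Tnfrsf11a window held none of the 3 motifs. Of the windows not shown, that of Btla, a gene at 427 TPM, also held none. That of Tnfrsf14 held 2 GGAAA matches, and those of Cd160 held 0 and 1. Over 32817 promoter windows of the same length, 54.1% held GGAAA, 6.59% held TGANTCA and 12.1% held TATAAA, so a GGAAA match is common. The Tnfrsf11a window differed from both ligand windows in base composition. It had 31 CG dinucleotides, more than 95.6% of all windows, and the Tnfsf11 and Tnfsf14 windows had 4 each against a median of 5. The window of Tnfrsf14, another receptor gene, had 2. That window ended at 154928327, inside the span of the counted gene, which runs to 154928563 on the minus strand. The Cd160 window with 1 GGAAA match also lay inside the span of its gene. A match is a run of letters and does not show that a factor was bound.

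Of the 9 genes 6 were detected, meaning at least 1 TPM in every library, beside 49.4% of all 21764 protein-coding genes. The 3 ligand genes, Btla, Tnfrsf14 and Cd160 were detected, and Tnfrsf11a, Cd40 and Tnfrsf11b were below 1 TPM in every library. The 9 mean levels ran from 0.106 to 1076 TPM. Since the members were chosen with levels known, their share carries no weight as evidence.

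**Figure D1:**
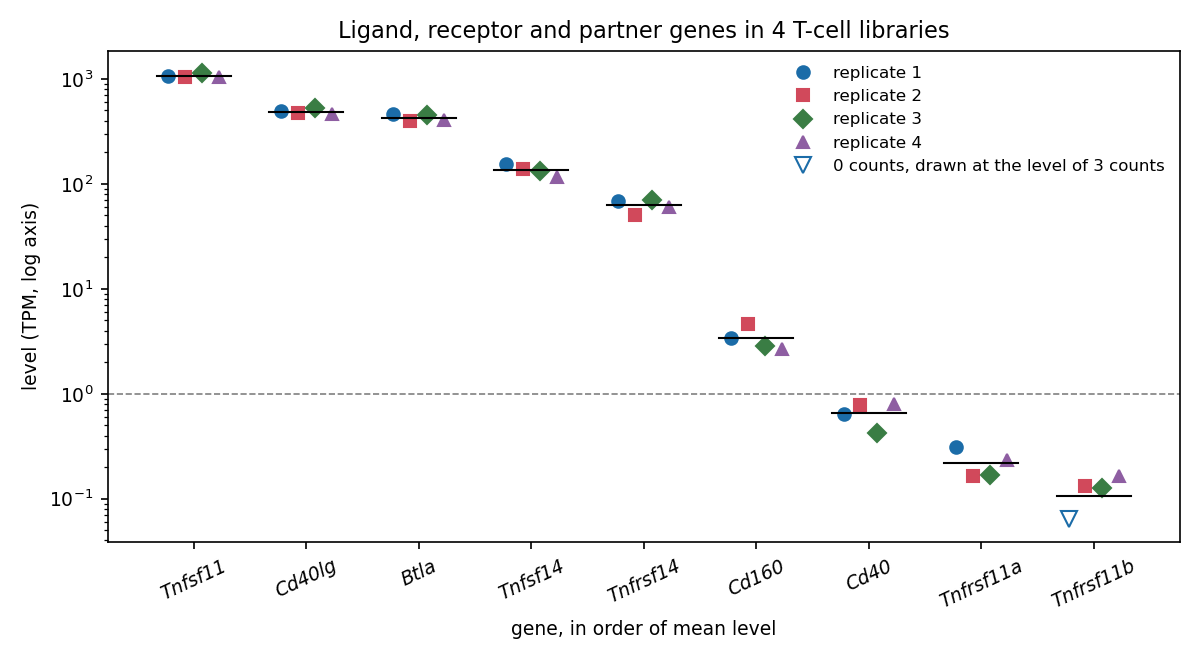
Level of each of the 9 genes in TPM (log axis) in replicates 1 to 4 (symbols), with the mean as a black line and 1 TPM as a dashed line. Tnfsf11, Cd40lg and Btla sit above 390 TPM, and Cd40, Tnfrsf11a and Tnfrsf11b sit below 1 TPM in all 4 libraries, with Tnfrsf11b at 0 counts in replicate 1, drawn at the level of 3 counts.

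Among the ligands, Tnfsf11 (ENSMUSG00000022015.8, mm10, chromosome 14, 78277445 to 78308043, minus strand, 5 exon blocks) was the most abundant. It stood at 1064, 1054, 1136 and 1051 TPM (replicates 1 to 4), from 35389 to 65310 counts. Replicate 3 was the highest, and the highest library was 1.08 times the lowest. The mean of 1076 ± 40.4 TPM ranked 77th of the protein-coding genes, within the top 0.354%. Tnfsf11 was also first of the 18 TNF ligand genes listed, with 29.0 ± 1.10% of their summed TPM.

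Cd40lg (ENSMUSG00000031132.1, chromosome X, 57212143 to 57224042, plus strand, 5 exon blocks) encodes the ligand through which T cells help B cells. It stood at 495, 470.2, 523 and 463 TPM (replicates 1 to 4), with a mean of 488 ± 27.5 TPM. Replicate 3 was the highest and replicate 4 the lowest, a ratio of 1.13. The order of the libraries differed from that of the X-linked Xist, which was highest in replicate 1 and lowest in replicate 4 over an 848-fold range. Cd40lg ranked 279th of the protein-coding genes and, behind Tnfsf11 and Tnfsf8, had the next level among the listed ligands, with 13.1 ± 0.526% of their summed TPM.

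Tnfsf14 (ENSMUSG00000005824.6, chromosome 17, 57189492 to 57194189, minus strand, 4 exon blocks) encodes LIGHT, a costimulatory ligand. It stood at 154, 138, 134 and 116 TPM (replicates 1 to 4), with a mean of 136 ± 15.6 TPM. Replicate 1 was 1.33 times replicate 4. It was ninth of the 18 ligands, with 3.64 ± 0.313% of their summed TPM. Its neighbours on chromosome 17 include 2 other TNF ligand genes. Cd70 (the CD27 ligand) lies 39715 bases away with no protein-coding gene between them, and Tnfsf9 (the 4-1BB ligand) lies 81735 bases away with 1 between. Cd70 stood at 245 ± 10.8 TPM, above Tnfsf14 in every library, whereas the range of Tnfsf9, 149 to 159 TPM, overlapped that of Tnfsf14.

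The receptors of RANKL and CD40L were near the lower end of what these libraries could measure. Tnfrsf11a (ENSMUSG00000026321.7, chromosome 1, 105780718 to 105847981, plus strand, 10 exon blocks) had 31, 16, 14 and 39 counts in replicates 1 to 4. These correspond to 0.309, 0.166, 0.168 and 0.235 TPM, with a mean of 0.219 ± 0.0677 TPM. The exact 95% Poisson intervals, which cover counting error only, ran from 0.21 to 0.438 TPM in replicate 1 and from 0.0946 to 0.269 TPM in replicate 2, so the intervals of the highest and lowest libraries overlapped. In bulk RNA, fewer expressing cells and less RNA per cell cannot be told apart.

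Cd40 (ENSMUSG00000017652.16, chromosome 2, 165055627 to 165072948, plus strand, 9 exon blocks) had 37, 43, 20 and 75 counts in replicates 1 to 4. Its level was 0.647, 0.782, 0.422 and 0.793 TPM, with a mean of 0.661 ± 0.173 TPM. Replicate 3 was the lowest, and its interval of 0.258 to 0.651 TPM overlapped the interval of 0.623 to 0.994 TPM in replicate 4. B-cell markers lay in the same range. One of 8 was detected, Cd79b at 2.55 ± 0.85 TPM, while Cd79a stood at 0.896 ± 0.303 TPM and Ms4a1 at 0.0938 ± 0.0628 TPM, and none was at 0 in all libraries. The 8 summed to 5.14, 5.2, 3.52 and 4.36 TPM (replicates 1 to 4), and their part in the level of Cd40 was not tested.

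Tnfrsf11b (ENSMUSG00000063727.3, chromosome 15, 54250619 to 54278484, minus strand, 5 exon blocks) was the lowest member, with 0, 6, 5 and 13 counts in replicates 1 to 4. The floor used for 0 counts, 3 counts, corresponds to 0.0635 TPM in replicate 1, where the exact 95% Poisson interval ran from 0 to 0.078 TPM, and the other libraries stood at 0.132, 0.127 and 0.166 TPM. Osteoblasts and stromal cells are known sources of osteoprotegerin. The sum of 8 stromal and osteoblast markers ran from 9.32 to 11.8 TPM, and 2 of them were detected. These were Runx2, a factor also known in T cells, at 5.41 ± 0.59 TPM and Pdgfrb, a growth factor receptor gene of mesenchymal cells, at 3.3 ± 0.191 TPM. Both exceeded Tnfrsf11b in every library. The osteoblast factor gene Sp7 stood at 1.13 ± 0.446 TPM and the collagen gene Col1a1 at 0.807 ± 0.179 TPM, while Col3a1 had 0 counts in all libraries. The part of such cells in the level of Tnfrsf11b was not tested.

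Tnfrsf14 (ENSMUSG00000042333.15, chromosome 4, 154922210 to 154928563, minus strand, 10 exon blocks) encodes HVEM and was the 1 detected receptor among the 3 of the ligand systems. It stood at 69.4, 51.0, 70.6 and 60.8 TPM (replicates 1 to 4), with a mean of 62.9 ± 9.07 TPM. Replicate 2 was the lowest, and replicates 1 and 3 were close together at the upper end. It ranked ninth of the 27 TNF receptor genes listed, with 1.44 ± 0.277% of their summed TPM, where Cd40, Tnfrsf11a and Tnfrsf11b ranked 21st, 23rd and 24th.

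The partners of HVEM from the immunoglobulin superfamily differed widely in level. Btla (ENSMUSG00000052013.14, chromosome 16, 45224315 to 45252895, plus strand, 6 exon blocks) stood at 461, 397, 449 and 403 TPM (replicates 1 to 4), with a mean of 427 ± 32.4 TPM. Replicates 1 and 3 were the higher pair, as they were for Tnfrsf14, Tnfsf11 and Cd40lg. Cd160 (ENSMUSG00000038304.14, chromosome 3, 96798763 to 96829351, minus strand, 6 exon blocks), known from cytotoxic lymphocytes, stood at 3.43, 4.59, 2.83 and 2.7 TPM, from 104 to 198 counts. Replicate 2 was the highest, with an exact 95% Poisson interval of 3.97 to 5.28 TPM that lay above the interval of 2.33 to 3.1 TPM in replicate 4. Cd160 was the only member whose exons overlapped another gene, by 68 bases with Pdzk1 on the opposite strand, and Pdzk1 had 25 to 42 counts per library.

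Natural killer and innate lymphoid markers, which mark cells known to carry CD160, included 2 of 7 that were detected, and the sum of all 7 ran from 23.1 to 26.9 TPM. Il7r, which T cells also express, stood at 20.6 ± 0.713 TPM. Eomes, a factor of natural killer and cytotoxic T cells, stood at 3.04, 2.19, 4.68 and 3.9 TPM (replicates 1 to 4), a range that overlapped that of Cd160, and it was lowest in replicate 2, where Cd160 was highest. The receptor gene Ncr1 had 0 counts in 2 libraries and Klra8 in all. Of 10 macrophage and dendritic cell markers, which mark cells known to carry RANK and CD40, 2 were detected and the sum ran from 6.37 to 10.5 TPM. The 2 were Batf3, also known in activated T cells, at 4.27 ± 1.87 TPM and Adgre1, the gene of the macrophage marker F4/80, at 3.21 ± 0.525 TPM, both above Cd40 and Tnfrsf11a in every library. Lyz2 had 1 count in replicate 3 alone, and Siglech and Clec9a had 0 counts in all libraries. The part of these cells in the levels of Cd160, Tnfrsf11a and Cd40 was not tested.

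In order of mean level the genes were Tnfsf11, Cd40lg, Btla, Tnfsf14, Tnfrsf14, Cd160, Cd40, Tnfrsf11a and Tnfrsf11b. Of the 8 neighbouring pairs 7 had ranges that did not overlap. Cd40lg and Btla were the closest of these 7, since the lowest library of Cd40lg, at 463 TPM, was just above the highest of Btla, at 461 TPM. The difference of their means was 1.14-fold, and Cd40lg was the higher in each of the 4 libraries. In counts Btla was the higher in every library, with 25199 against 10390 in replicate 1. The TPM order of Cd40lg and Btla thus rests on the deposited exon lengths, 1250 bases for Cd40lg and 3257 for Btla. The same lengths enter all 4 libraries, and other lengths were not tested. Tnfrsf11a and Tnfrsf11b overlapped, at 0.166 TPM for the lowest library of the former and the highest of the latter.

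Each ligand exceeded its receptor in all 4 libraries, by amounts that differed between the systems. On the log2(TPM + 1) scale, where the added 1 understates differences that involve low genes, Tnfsf11 minus Tnfrsf11a was 9.79 ± 0.11 and Cd40lg minus Cd40 was 8.21 ± 0.23 (SD, n = 4). Tnfsf14 minus Tnfrsf14 was 1.10 ± 0.24, with libraries at 1.14, 1.42, 0.92 and 0.93. On the linear scale the Tnfsf11 level was 3446, 6368, 6766 and 4482 times that of Tnfrsf11a in replicates 1 to 4. The Cd40lg level was 765, 602, 1242 and 584 times that of Cd40, and the Tnfsf14 level was 2.23, 2.71, 1.9 and 1.92 times that of Tnfrsf14.

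The remaining pairs concern the decoy receptor and the HVEM network. Tnfsf11 was at least 16770-fold higher than Tnfrsf11b in replicate 1, taken against the floor of 3 counts in that library, and 7995, 8920 and 6331 times as high in replicates 2 to 4. Btla minus Tnfrsf14 was 2.75 ± 0.13 on the log2(TPM + 1) scale, and Btla minus Cd160 was 6.63 ± 0.32. Tnfsf14 exceeded Ltbr, the gene of its other receptor, by 5.13 ± 0.26. Ltbr stood at 3.11, 4.1, 2.26 and 2.31 TPM, so of the 2 receptor genes of LIGHT, Tnfrsf14 was the higher in each library.

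**Figure D2:**
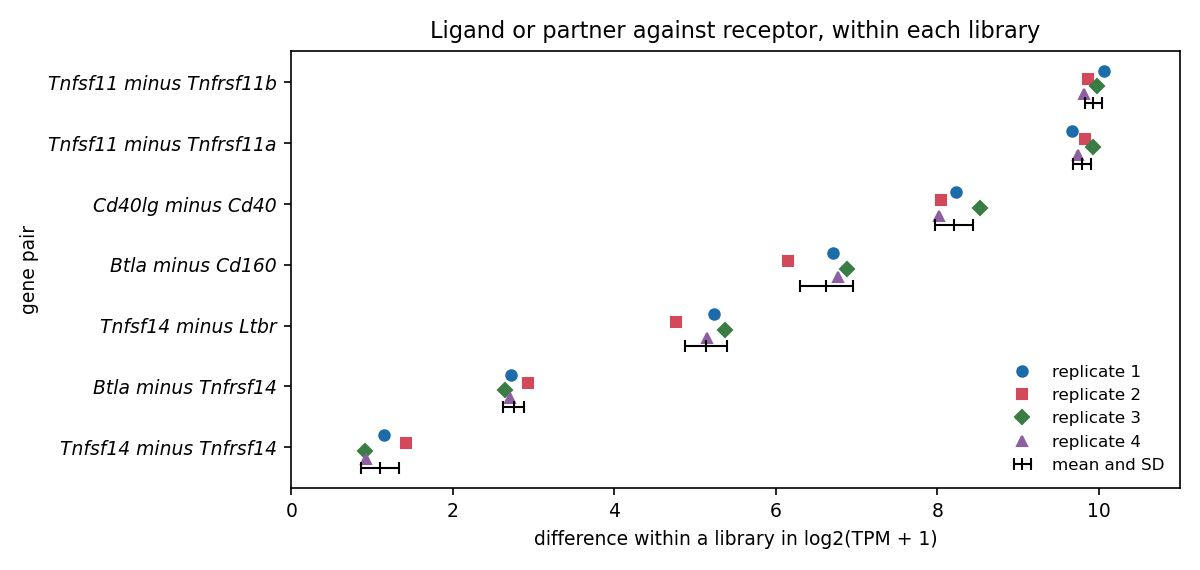
Difference in log2(TPM + 1) within each library for 7 gene pairs (symbols for replicates 1 to 4), with the mean and SD below each row. All differences are above 0, from 1.10 on average for Tnfsf14 minus Tnfrsf14 to 9.93 for Tnfsf11 minus Tnfrsf11b.

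**Figure D3:**
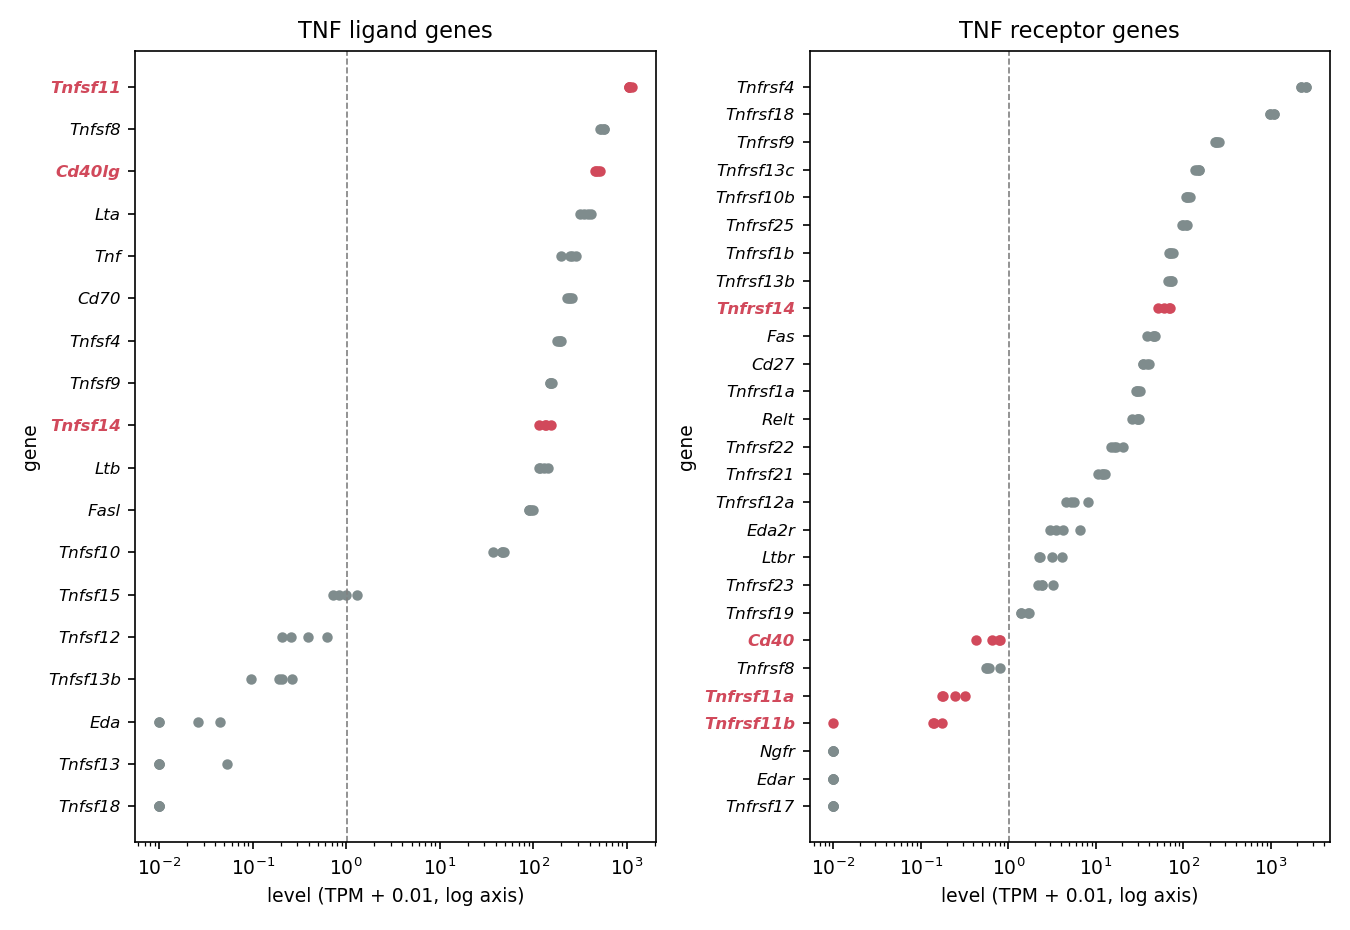
Levels of the 18 TNF ligand genes and 27 TNF receptor genes listed, in TPM with 0.01 added (log axis), 1 point per library, with the members in red and 1 TPM as a dashed line. Tnfsf11 is the highest ligand, and of the 4 receptor members only Tnfrsf14 lies right of the dashed line.

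The gene nearest to each detected member in level was sought among the 38 other genes of the TNF ligand and receptor lists, by the root mean square difference in log2(TPM + 1) over 4 libraries. Tnfsf11 lay nearest to Tnfrsf18, the gene of the receptor GITR, at a difference of 0.13 and a level of 1032 ± 65.1 TPM. Cd40lg lay nearest to Tnfsf8, the CD30 ligand gene (0.17, at 549 ± 29.1 TPM), and Tnfsf14 to Tnfrsf13c, the BAFF receptor gene (0.17, at 144 ± 7.49 TPM). For Tnfrsf14 the nearest was Tnfrsf1b, a TNF receptor gene (0.26, at 71.7 ± 4.02 TPM), for Btla it was Lta (0.28, at 366 ± 41.7 TPM) and for Cd160 it was Ltbr (0.16, at 2.95 ± 0.865 TPM).

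The spread of each gene over the 4 libraries was set against that of genes of like abundance with edgeR, over 13681 genes. None of the 8 members tested was called at an adjusted p under 0.05, and 0 of the 8 had an unadjusted p under 0.05. Over all genes tested 0.687% were called and 7.01% had an unadjusted p under 0.05. Tnfrsf11b was left out by the filter on low counts. The lowest edgeR adjusted p among members was 0.905, for Tnfsf14, and that of Tnfsf11 was 1.0. The same procedure was run on simulated data for this comparison, over 13495 genes. It recovered 20% of genes changed 1.5-fold in 2 of 4 libraries and 80% of those changed 2-fold. The changed genes were drawn at random over all abundances, so these shares are not the recovery at the abundance of a given member. The lack of a call therefore does not show that a member was equal between libraries.

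The abundant members spread less than the low ones. The coefficient of variation (SD over mean of TPM) was 3.75% for Tnfsf11, 5.63% for Cd40lg and 7.58% for Btla, beside 10.1%, 7.55% and 9.37% for the edgeR trend at their abundance, which leaves counting error out. It was 11.5% for Tnfsf14 and 14.4% for Tnfrsf14, beside 7.53% and 9.41%. For Cd160, Cd40 and Tnfrsf11a it was 25.6%, 26.1% and 30.9%, beside trend values of 20%, 27.0% and 27.4%, so that of Cd40 was below its trend. Counting error alone would give 8.12%, 16.9% and 21.9% for these 3 genes, but at most 2.82% for the 5 genes above them.

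**Figure D4:**
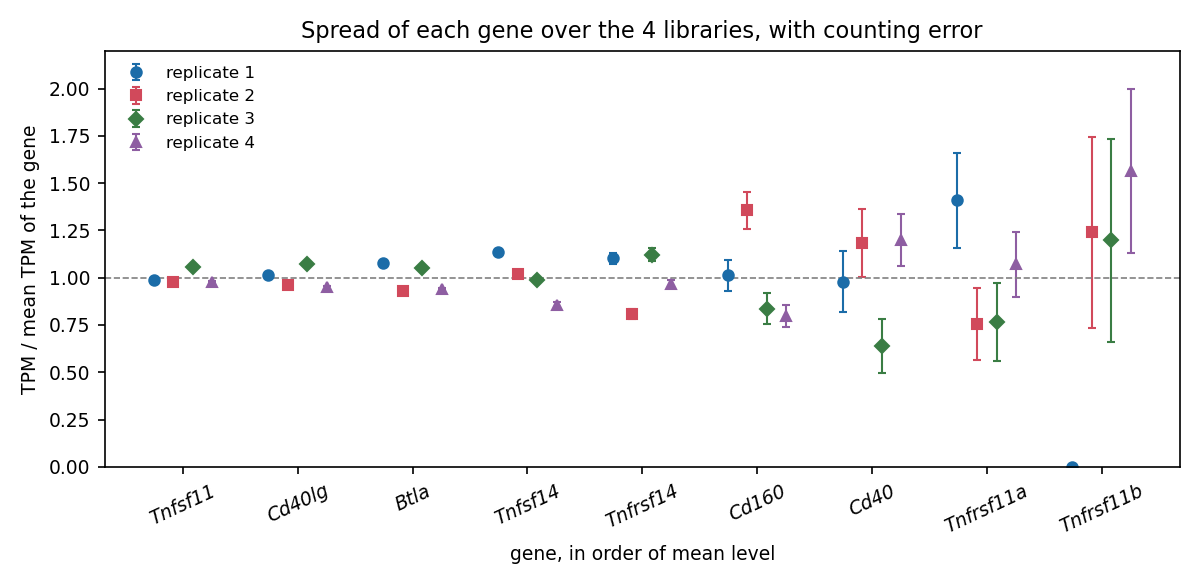
TPM of each gene in replicates 1 to 4 divided by its mean, with bars for the counting error (the level divided by the square root of its count; none at 0 counts). Points of Tnfsf11 lie closest to 1, and the bars of Cd40, Tnfrsf11a and Tnfrsf11b are the widest.

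The genes listed around the 3 ligand systems include membrane proteases and factors that act on the ligand genes or their mRNA. Of these 54 genes, grouped by role, 47 were detected, against 49.4% of protein-coding genes. Their median level was 49.7 TPM against 1.21 TPM over all protein-coding genes. The role lists were chosen with earlier results of these data known, so this share and median carry no weight as evidence. None of the 48 tested was called variable by edgeR at an adjusted p under 0.05, beside 0.687% of all genes tested. An unadjusted edgeR p under 0.05 was found for 6, beside 7.01% of all genes tested. These were Lta, Ltb, Acp5, Egr1, Egr3 and Batf (lowest edgeR adjusted p = 0.424, for Batf).

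All 6 TRAF adaptor genes, whose proteins link TNF receptors to signalling, were detected. Traf4 stood at 127 ± 12.6 TPM, Traf1 at 85.9 ± 3.97 TPM, Traf2 at 42.0 ± 1.92 TPM and Traf6, which RANK and CD40 use, at 41.9 ± 4.25 TPM. All 6 genes of the non-canonical NF-kappaB route were detected too. The kinase gene Map3k14 (NIK) stood at 20.2 ± 1.77 TPM, Nfkb2, which encodes the p100 precursor, at 753 ± 56.2 TPM, the ubiquitin ligase gene Birc3 at 79.6 ± 5.84 TPM and Relb at 72.3 ± 4.45 TPM. Of the canonical route all 6 were detected, with the kinase gene Ikbkb at 23.4 ± 1.54 TPM, the inhibitor gene Nfkbia at 1312 ± 20.3 TPM, Nfkb1 at 327 ± 31.5 TPM and Rel at 216 ± 34.4 TPM.

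Other partners of the ligands and receptors were detected in 8 of 9 cases. Lta, whose product lymphotoxin alpha also binds HVEM, stood at 386, 413, 350.5 and 317 TPM (replicates 1 to 4) and Ltb, its membrane partner, at 114, 144, 117 and 132 TPM. The integrin gene Itgb1 stood at 329 ± 14 TPM, and Itgam, the exception, had 1 count in replicate 4 alone. All 5 genes of BTLA and CD160 signalling were detected, led by the phosphatase gene Ptpn6 (SHP-1) at 605 ± 21.3 TPM, the kinase gene Fyn at 228 ± 13.3 TPM and the phosphatase gene Ptpn11 (SHP-2) at 183 ± 19.8 TPM. Of 3 membrane protease genes, Adam10 stood at 213 ± 23.2 TPM and Adam17 at 59.0 ± 4.95 TPM, and Mmp14, which can shed RANKL, was not detected in every library at 0.932 ± 0.304 TPM.

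Osteoclast genes that RANK is known to induce were split. Nfatc1, which T cells also use, stood at 187 ± 17.2 TPM. Acp5, the tartrate-resistant phosphatase gene, stood at 20.3, 27.5, 26.2 and 29.9 TPM (replicates 1 to 4). Calcr, the calcitonin receptor gene, stood at 18.1, 15.4, 19.3 and 15.5 TPM, and Src was the fourth of 9 to be detected. The protease gene Ctsk stood at 0.41 ± 0.197 TPM, Oscar, Ocstamp and Mmp9 had 0 counts in replicate 1 and at most 21 in the others, and the fusion gene Dcstamp had 0 counts in all libraries. All 10 factors listed as acting on the ligand genes or their mRNA were detected, with Nfatc2 at 47.5 ± 6.15 TPM, Ptbp1, known to stabilise CD40L mRNA, at 681 ± 51.1 TPM, the RNA-binding nucleolin gene Ncl at 583 ± 48.7 TPM and the receptor-induced factor gene Egr3 at 313 ± 48.0 TPM.

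**Figure D5:**
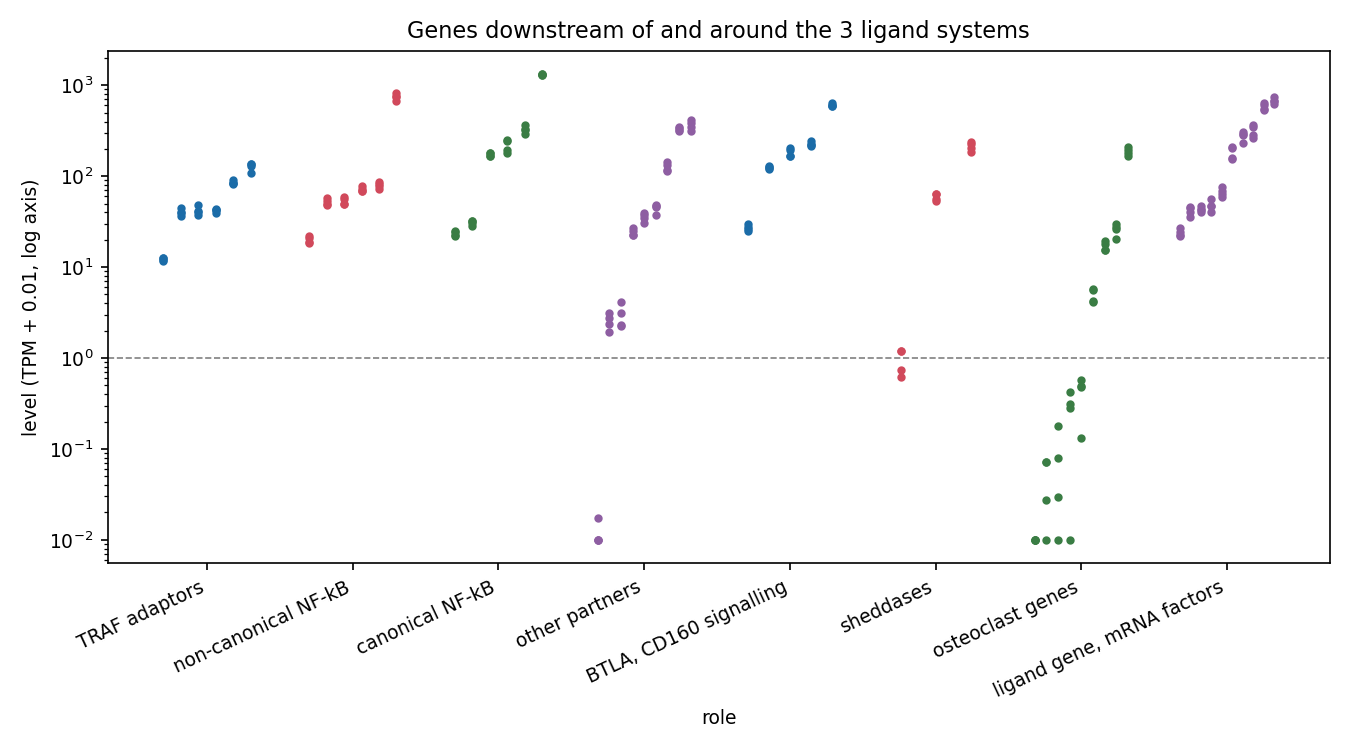
Levels of 54 genes around the 3 ligand systems by role, in TPM with 0.01 added (log axis), 1 point per library and 1 column of points per gene, with 1 TPM as a dashed line. All columns of the TRAF and NF-kappaB roles lie above 10 TPM, while the osteoclast genes run from 0 counts to 208 TPM.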

How the data were processed

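The authors deposited raw counts of read pairs per gene, 1 table per library, not pooled. Per the file headers, pairs with both ends aligned were counted with featureCounts 1.4.6-p4 on the reverse strand, over the exons of each gene in the mouse GENCODE annotation, release 13. No option for multimapping or multi-gene reads was set. The build was mm10, per the labels. STAR is named in the file headers without a version. The libraries were grouped as 4 biological replicates by the labels.

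TPM was computed here from counts and the deposited exon lengths over all genes. Symbols came from GENCODE mouse release 21 (50376 of 50600 genes matched). Spread was tested in edgeR 4.0.16 (R 4.3.3; TMM, filterByExpr for 1 group, trended dispersion, intercept-only fit, deviance against chi-square on 3 degrees of freedom, Benjamini-Hochberg over all genes tested), and the procedure was tested on simulated data. A count of 0 was given a floor of 3 counts. Python 3.11.15, scipy 1.17.1 and matplotlib 3.10.9 were used. Depth was 49613182 to 94222415 counts per library.

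The members, role lists, markers and pairs were chosen with earlier results of these data known. Named are all members, the first gene and the 3 highest of each role list, the role-list genes with an unadjusted p under 0.05, the nearest TNF-family genes, the first and highest marker of each list, and a few others picked with their values in view. Alternatives are given at the end. Text notes that list files were not used.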

Additional observations from a re-analysis of the deposited data

Results flagged for a closer look

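In 70 sets of 4 values (the levels of the 9 members and 54 role-list genes, and the 7 pair differences), the highest or lowest library was compared with the rest, and chance sets apart about 1 in 20 such sets. In 2 sets a library stood far from the others. Tnfsf11 in replicate 3, at 1136 TPM, stood above the other 3 libraries, which lay within 1051 to 1064 TPM, although the whole range was 1.08-fold. Itgam in replicate 4, at 0.00717 TPM, rested on 1 count, and the other libraries had 0.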

How the results depend on the processing

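Of 188 comparisons of a result with an alternative, 177 stayed within tolerance (a level or difference within 1 SD over libraries, a count within 1.5 times, a call on the same side of its threshold), 11 moved further, and no direction reversed. Leaving out 1 of 4 libraries cannot move a mean by as much as 1 SD. For levels and differences, the settings without 1 replicate were therefore bound to stay within tolerance and carry no weight as evidence of stability. Within tolerance, leaving out 1 replicate changed member levels by -18.7% to 33.3%, the highest being Tnfrsf11b without replicate 1 (0.142 TPM), and pathway genes detected ran from 44 to 48. TPM over protein-coding genes alone raised all member levels by 5.66% to 5.84%, which exceeded the SD over libraries for Tnfsf11 (1138 TPM) and Cd40lg (516 TPM). A pseudocount of 0.1 widened the differences that involve a low gene, as its construction implies, to 11.74 for Tnfsf11 minus Tnfrsf11a, 12.44 for Tnfsf11 minus Tnfrsf11b, 9.36 for Cd40lg minus Cd40, 5.51 for Tnfsf14 minus Ltbr and 6.97 for Btla minus Cd160. The count of detected members was 6 at 0.5 TPM, 5 at 5 TPM and 8 with at least 10 counts in every library, and stayed at 6 without each replicate in turn. The edgeR count of variable genes, 94, was 617 under a common dispersion, 67 with no filter, and 38 to 87 without 1 replicate (46 without replicate 1, 38 without replicate 2, 46 without replicate 4), where fewer libraries enter. The cause was not tested otherwise. No member was called under any of these edgeR settings, DESeq2 1.42.0 size factors and a mean count of at least 50 included, and the lowest edgeR adjusted p of a member was 0.114, for Cd160. Levels of Cd40, Tnfrsf11a and Tnfrsf11b are limited by counts of 0 to 75 per library. No paired analysis was possible because the labels give 1 group.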
